A study of Mus musculus with 30 samples.

Results

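Expression of 9 genes of the TGF-beta and activin pathway was followed in cultured mouse limb mesenchyme. They are the TGF-beta ligand genes Tgfb1, Tgfb2 and Tgfb3, the activin subunit genes Inhba and Inhbb, the receptor genes Tgfbr1, Tgfbr2 and Tgfbr3, and Tgfbi. Tgfbi encodes a secreted matrix protein named for its induction by TGF-beta, so it is neither a ligand nor a receptor and is described separately. The genes were chosen by name and not by a cut on their values, but with earlier results of these data known. Of 45101 probe sets on the array 23 are annotated to them, and each gene is represented by its probe set of highest signal. All 9 genes passed the filter on dim probe sets and stand among 15136 genes tested.

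The cells were limb bud mesenchyme of CD-1 mouse embryos at stage E10.5, plated at high density as micromass cultures, in which such cells form cartilage. The early population came from the distal part of the hindlimb bud, the intermediate population from the distal part of the forelimb bud and the late population from the remaining, proximal part of the forelimb bud. Each population was measured at day 0, and at days 1 and 2 either in control medium or in medium with BMP4, a bone morphogenetic protein, at 20 ng/ml, added at plating. That gives 15 groups of 2 arrays, which the labels call biological replicates, and 30 Affymetrix mouse whole-genome arrays in all. All media held fetal bovine serum, in the controls too, and RNA came from cultures pooled from about 280 embryos.

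TGF-beta ligands are secreted in a latent form that is stored in the matrix with latent TGF-beta binding proteins. Released ligand binds the type II receptor TGFBR2, which activates the type I receptor TGFBR1, and this phosphorylates SMAD2 and SMAD3, which enter the nucleus with SMAD4. TGFBR3, or betaglycan, is a coreceptor without kinase activity that presents ligand and also binds inhibins. Activins are dimers of the chains encoded by Inhba and Inhbb and reach the same SMADs through activin receptors. In limb mesenchyme the pathway is known for its part in condensation, early cartilage differentiation, joints and tendon.

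Levels are given as log2(signal + 16), where signal is the deposited intensity of a probe set and 16 keeps dim values from spreading. Differences are on the same log2 scale with their standard error (SE), and folds are folds of signal + 16, which understate changes of dim genes. A gene is called where the adjusted p of limma (Benjamini-Hochberg over 15136 genes) is under 0.05. Values of the other probe sets of a gene come from a separate limma fit over probe sets. That fit includes probe sets of no gene or several genes, and its p-values are adjusted over that different set. Every array had a trimmed mean signal of 150, and replicate arrays correlated at 0.97 to 0.984 over the genes. Prrx1, a limb mesenchyme marker, lay between 10.47 and 11.37 on the 30 arrays. Of 8 such markers 2 rose and 3 fell from day 0 to day 1 in control medium, where 39.5% of all genes were called. The BMP response genes Smad6 and Msx2 rose with BMP4 at day 1 by 1.15 ± 0.17 and 2.02 ± 0.24 (SE) as a mean of the 3 populations. Id1, another BMP response gene chosen for this check, was not called in that comparison.

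At day 0, 2 of the 6 libraries went against their labels in genes of limb type. The library labelled early replicate 2, a hindlimb sample by its label, had a signal of 43.7 for the hindlimb gene Pitx1 and of 346 for the forelimb gene Tbx5, against 842 and 6.22 in early replicate 1. The library labelled intermediate replicate 2, a forelimb sample by its label, had 675 for Pitx1 and 9.66 for Tbx5, against 55.2 and 339 in intermediate replicate 1. Comparisons with day 0 were therefore made as means over the 3 populations, which hold the same 6 arrays whatever limb each came from. They are given again without the 3 day 0 arrays numbered replicate 2.

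The genes called for BMP4 in the mean of populations were Tgfb1, Tgfbi and Tgfbr3, of which Tgfbr3 had no promoter available. Promoter sequences are therefore shown for Tgfb1 and Tgfbi. They are the 250 bases before the annotated start site, from RefSeq, assembly GRCm38.p6, both on the plus strand and written 5′ to 3′. The Tgfb1 window is chr7:25686752-25687001 and the Tgfbi window is chr13:56609336-56609585. Capitals mark a match to a searched motif.
Tgfb1: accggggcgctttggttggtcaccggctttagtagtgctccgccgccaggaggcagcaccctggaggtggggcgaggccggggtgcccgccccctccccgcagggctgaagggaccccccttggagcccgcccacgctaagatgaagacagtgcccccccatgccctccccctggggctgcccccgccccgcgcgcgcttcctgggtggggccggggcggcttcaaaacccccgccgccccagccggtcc
Tgfbi: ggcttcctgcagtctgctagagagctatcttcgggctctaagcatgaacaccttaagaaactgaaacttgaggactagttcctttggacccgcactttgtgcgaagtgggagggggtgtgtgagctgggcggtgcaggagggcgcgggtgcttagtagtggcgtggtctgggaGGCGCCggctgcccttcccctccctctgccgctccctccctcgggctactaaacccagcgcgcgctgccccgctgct

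Motifs were searched on both strands, from 250 bases before to 50 bases after the start site, and none of them contains another. The promoter of Tgfbi held the GC-rich SMAD motif GGCGCC at position -77, which 11.9% of the 32851 promoters of the table held. A promoter of Tgfbr1, which was not called for BMP4, held it too, at position -233. In the Tgfb1 window, of which 75.2% of the printed bases are G or C, no searched letters were found. The SMAD element CAGACA was found in Tgfb2 at -204 and in a second promoter of Tgfbr1 at -203, and in 21.0% of all promoters. The longer palindromic SMAD element GTCTAGAC was found in 0.213% of them. The AP-1 site TGANTCA was present in 7.81% of the promoters. The TATA box, searched as TATAAA, was found in Tgfb2 at -31 and Inhba at -91, and in 13.6% of all promoters. A match describes letters and not a site in use. No promoter of Tgfb3 or Tgfbr3 was among the 32851 promoters, so neither gene was searched.

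**Figure D1:**
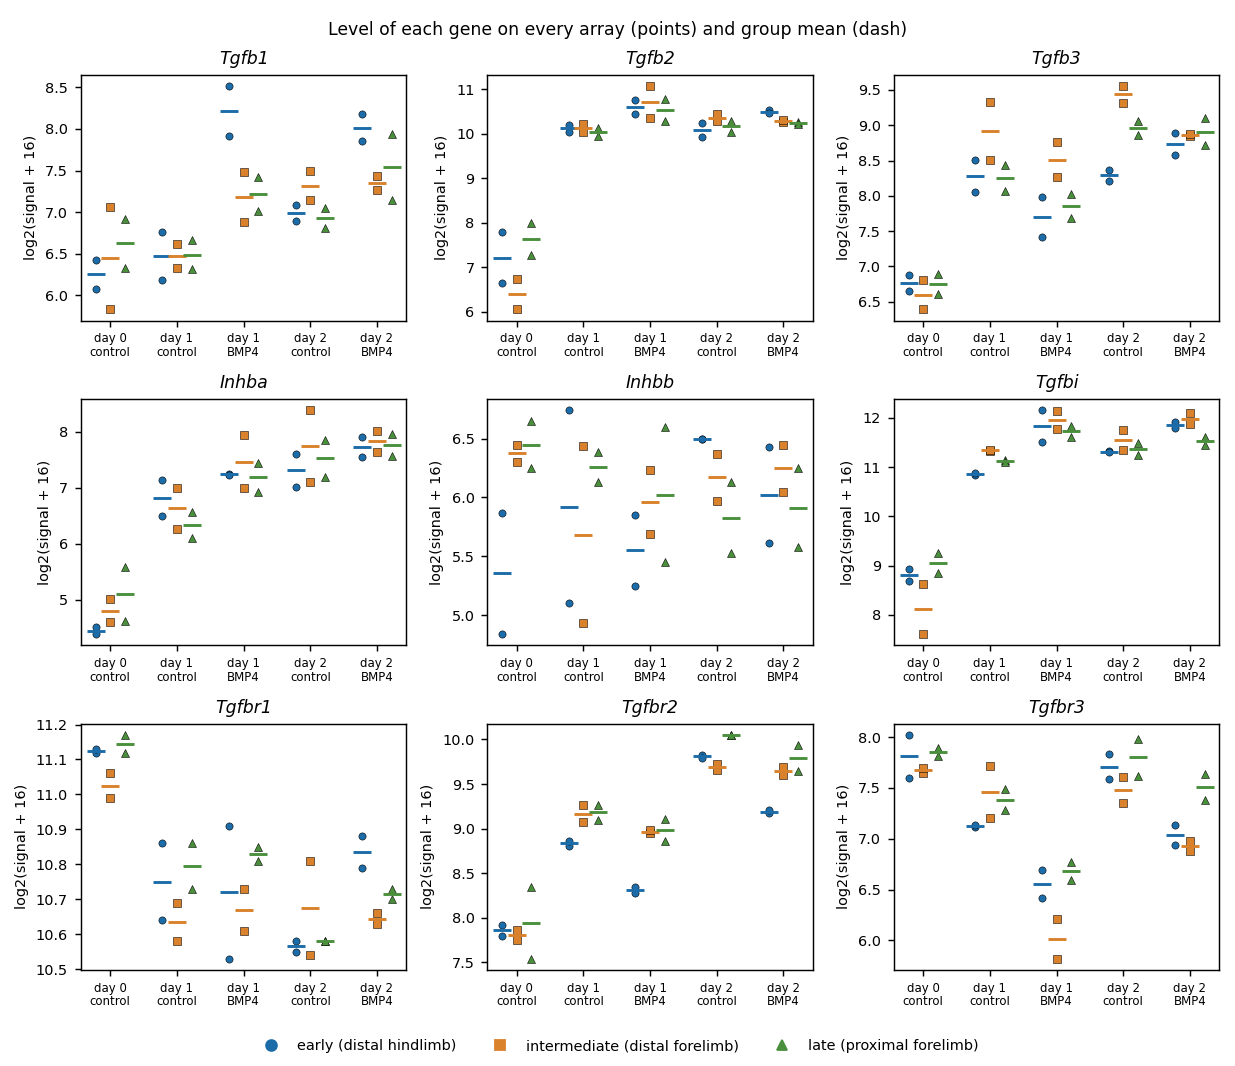
Level of each gene on every array, as log2(signal + 16) on axes that differ between genes, in the 5 conditions; points are arrays, dashes are group means of 2 arrays, and colours and shapes mark the population named by the label. Tgfb2 and Tgfbi lay between 6.05 and 7.99 and between 7.61 and 9.25 at day 0 and at 9.93 or more and 10.83 or more on every later array, whereas Inhbb spread over 4.84 to 6.74 with no separation of conditions.

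Most of the 9 genes differed between day 0 and the later days in control medium. From day 0 to day 1 in control medium, 5 of the 9 genes rose (Tgfb2, Tgfb3, Inhba, Tgfbr2 and Tgfbi), 2 fell (Tgfbr1 and Tgfbr3) and Tgfb1 and Inhbb were not called, where 39.5% of all genes tested were called in one direction or the other. From day 1 to day 2 Inhba and Tgfbr2 rose, 2 of 9 beside 8.55% of all genes. Over both days together 7 of 9 were called, these 5 and Tgfb1 higher and Tgfbr1 lower, beside 48.5% of all genes. The Tgfb1 call rests on 1 of its 2 probe sets and was lost without the 3 doubted arrays. Over the same days the median difference of the 9 genes was 1.98 beside -0.01 over all genes. In cultures of mixed cells, fewer cells of a type and less RNA per cell cannot be told apart.

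Tgfb2, which encodes the TGF-beta2 ligand, rose steeply on the first day of culture. On the 6 arrays of each day in control medium its lowest, median and highest levels were 6.05, 7.00 and 7.99 at day 0, 9.95, 10.09 and 10.22 at day 1, and 9.93, 10.26 and 10.44 at day 2. Every array of days 1 and 2 was above every day 0 array, and days 1 and 2 overlapped. The rise to day 1 was 3.02 ± 0.17 (SE), or 8.11-fold, with an adjusted p of 4.97e-11 in limma, and the further difference to day 2 was 0.11 ± 0.17. Without the 3 doubted arrays the rise to day 1 was 2.98 ± 0.14. The other 3 probe sets of Tgfb2 rose to day 1 as well, by 2.39, 2.35 and 3.28.

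Tgfb3 encodes the TGF-beta3 ligand. Its lowest, median and highest levels were 6.39, 6.72 and 6.89 at day 0, 8.06, 8.48 and 9.33 at day 1, and 8.21, 8.96 and 9.56 at day 2. Day 0 stood clear of both later days, which overlapped. Tgfb3 rose by 1.78 ± 0.15 (SE) to day 1, or 3.44-fold (limma adjusted p = 7.32e-09), and by 2.19 ± 0.15 to day 2. The step from day 1 to day 2, 0.41 ± 0.15, was not called (limma adjusted p = 0.0935).

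Tgfb1, the gene of the TGF-beta1 ligand, had the smallest differences from day 0 of the 3 TGF-beta genes in control medium. The lowest, median and highest levels were 5.83, 6.38 and 7.06 at day 0, 6.18, 6.48 and 6.76 at day 1, and 6.81, 7.06 and 7.49 at day 2. Day 2 lay above day 1 on every array, by 0.60 ± 0.20 (SE; limma adjusted p = 0.0689), and overlapped day 0. The difference from day 0 to day 2 was 0.64 ± 0.20 (SE), called with a limma adjusted p of 0.0111, but it was 0.28 ± 0.20 without the 3 doubted arrays (adjusted p = 0.308) and 0.43 without the library labelled intermediate day 0 replicate 2 alone. A dimmer second probe set of Tgfb1 differed by -0.54 over the same days (limma adjusted p = 0.0051), so the 2 probe sets moved in opposite directions and no direction is given for Tgfb1 in culture.

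Inhba encodes the inhibin beta A chain, which forms activin A. Its levels on the 6 arrays ran from 4.39 to 5.59 at day 0 (median 4.62), from 6.10 to 7.14 at day 1 (median 6.54) and from 7.02 to 8.38 at day 2 (median 7.40). The day 0 values were signals of 4.91 to 32.3, below or near the 40th percentile of an array, which was a signal of 20.3 to 30.5, so the size of the rise depends on the pseudocount. Inhba rose by 1.80 ± 0.24 (SE) to day 1 (limma adjusted p = 3.09e-06) and by a further 0.93 ± 0.24 to day 2 (limma adjusted p = 0.0165). The rise to day 1 was 2.81 with a pseudocount of 1 and 0.93 with one of 64, and that to day 2 was 3.86 and 1.62, called each time. Days 1 and 2 overlapped, and the second call was lost on leaving out any of 6 single arrays, with differences of 0.72 to 0.85 then.

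Inhbb, the gene of the inhibin beta B chain, was not called in any of the 18 comparisons. Its levels in control medium spread over 4.84 to 6.65 at day 0, 4.93 to 6.74 at day 1 and 5.53 to 6.5 at day 2, and 4 of the 30 arrays had it under their 40th percentile. The median SD between replicate arrays was 0.42 for Inhbb, against a difference from day 0 to day 2 of 0.11 ± 0.30 (SE).

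Tgfbr2, the type II receptor that binds the ligand, rose on both days. Its lowest, median and highest levels were 7.54, 7.83 and 8.35 at day 0, 8.81, 9.09 and 9.27 at day 1, and 9.66, 9.81 and 10.05 at day 2. No array of one day overlapped those of the next. The rises were 1.19 ± 0.10 (SE) to day 1 and 0.79 ± 0.10 from day 1 to day 2, together 1.98 ± 0.10 or 3.94-fold, with limma adjusted p-values of 7.41e-09, 2.2e-05 and 2.36e-12. A second probe set of Tgfbr2 rose by 1.84 from day 0 to day 2, and another was below the 40th percentile on all 30 arrays.

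Tgfbr1, the type I receptor kinase, fell slightly but evenly. The 6 arrays spanned 10.99 to 11.17 at day 0, 10.58 to 10.86 at day 1 and 10.54 to 10.81 at day 2, so that every later array was below every day 0 array. The fall to day 1 was -0.37 ± 0.07 (SE), and to day 2 -0.49 ± 0.07, or 1.41-fold lower (limma adjusted p = 0.000107 and 2.31e-06). Without the 3 doubted arrays both differences were the same to 2 decimals. The other 2 probe sets of Tgfbr1 fell by 0.51 and 0.57 from day 0 to day 2 (limma adjusted p = 0.0435 and 0.0192).

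Tgfbr3, the betaglycan coreceptor, dipped at day 1 and was back near its start at day 2. Its levels ran from 7.60 to 8.02 at day 0 (median 7.76), from 7.12 to 7.72 at day 1 (median 7.24) and from 7.35 to 7.98 at day 2 (median 7.62), with overlap between all 3 days. The difference to day 1 was -0.46 ± 0.11 (SE; limma adjusted p = 0.00287), but -0.36 ± 0.14 without the 3 doubted arrays (adjusted p = 0.0594) and 0.05 ± 0.12 in the second, dimmer probe set of Tgfbr3. From day 0 to day 2 the difference was -0.12 ± 0.11 and was not called.

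Tgfbi, the TGF-beta-induced matrix protein, followed Tgfb2 closely. On the 6 arrays of a day in control medium it ran from 7.61 to 9.25 at day 0 (median 8.77), from 10.83 to 11.35 at day 1 (median 11.12) and from 11.25 to 11.76 at day 2 (median 11.33). All day 1 and day 2 arrays were above all day 0 arrays. The rise to day 1 was 2.44 ± 0.14 (SE), or 5.44-fold (limma adjusted p = 4.61e-11), and 2.25 ± 0.13 without the 3 doubted arrays. The other 3 probe sets of Tgfbi rose by 2.70, 1.5 and 2.54.

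**Figure D2:**
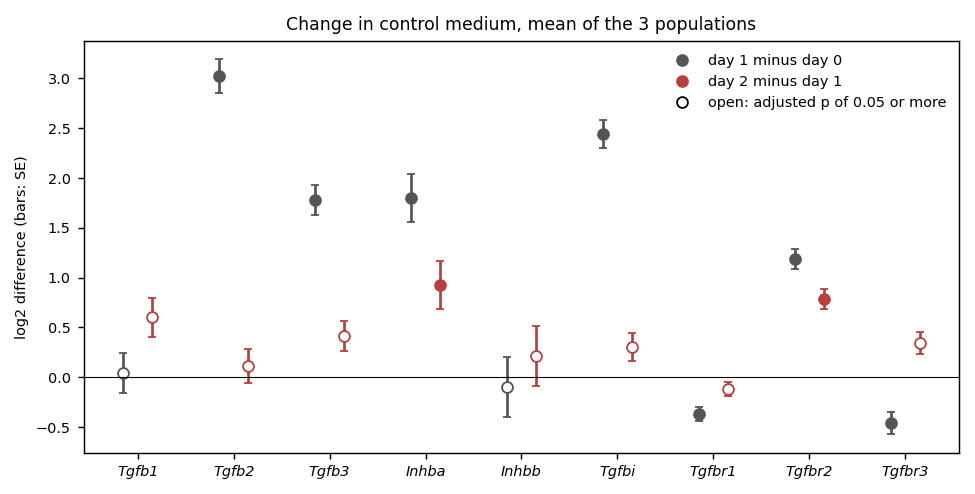
Change of each gene in control medium, as the log2 difference between days averaged over the 3 populations (points, with SE as bars), from day 0 to day 1 in grey and from day 1 to day 2 in red; filled points have a limma adjusted p under 0.05. Tgfb2 (3.02) and Tgfbi (2.44) changed on the first day, while Inhba and Tgfbr2 were called on both days.

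Other cell markers shifted over the same first day. The summed signal of 4 red blood cell markers was 7313 to 17419 on the day 0 arrays and 33 to 261 on the day 1 controls, and that of 7 endothelial markers 361 to 747 and 124 to 258. The summed signal of 8 cartilage markers was 1185 to 2854 at day 0 and 7856 to 11776 at day 1, and that of 7 skeletal muscle markers 144 to 480 and 1310 to 8432. The summed signal of 8 limb mesenchyme markers was 6082 to 9383 at day 0 and 4203 to 6692 at day 1, which overlap. The part of these shifts in the changes of the 9 genes was not tested.

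Other genes of the pathway were taken from 5 lists, of which 48 of 53 genes were tested; the others are not analysed here. In control medium from day 0 to day 2, 10 of 13 genes for latency and extracellular inhibition rose and none fell, where 48.5% of all genes were called, 4074 of 15136 higher and 3260 lower. Among them were Thbs1 (3.89 ± 0.22, SE), which encodes thrombospondin 1, an activator of latent TGF-beta, Ltbp1 (2.01 ± 0.18) and Ltbp3 (1.96 ± 0.15), which encode latent TGF-beta binding proteins, and Fstl1 (1.29 ± 0.08), a follistatin-like protein. The median of the list was 0.74 beside -0.01 over all genes. Without the 3 doubted arrays 10 rose and 1 fell.

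Of 10 common TGF-beta target genes, 8 rose and 2 fell over the same days, beside the same 48.5% of all genes called in either direction. The smooth muscle genes Tagln (5.35 ± 0.18, SE) and Acta2 (4.04 ± 0.09), which encode transgelin and alpha smooth muscle actin, Ccn2 (2.84 ± 0.17), which encodes connective tissue growth factor, and Timp1 (1.40 ± 0.13), a metalloproteinase inhibitor, rose, while the early response genes Junb (-1.25 ± 0.19) and Klf10 (-0.58 ± 0.09) fell. Among 13 SMADs and intracellular regulators 1 was higher and 6 were lower, a share called that is near the 48.5% over all genes. Pmepa1, a SMAD-binding feedback inhibitor, rose by 1.43 ± 0.12, and Skil (-0.68 ± 0.06), Tgif1 (-0.65 ± 0.07) and Smad4 (-0.44 ± 0.05) fell; Skil and Tgif1 encode corepressors of SMADs and Smad4 the common partner SMAD. Junb and Klf10 were named after their values were seen, as the whole of the target genes that fell. The counts of both lists were the same without the 3 doubted arrays.

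Among 6 other receptor genes, the activin type II receptor genes Acvr2b (-1.82 ± 0.11, SE) and Acvr2a (-0.45 ± 0.07) fell from day 0 to day 2 and Eng (0.82 ± 0.18), which encodes the coreceptor endoglin, rose. Of 6 other ligand genes only Inha (0.69 ± 0.13), the inhibin alpha chain, was called. Many of these genes have other regulators, and the targets are also known as muscle, matrix or early response genes.

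**Figure D3:**
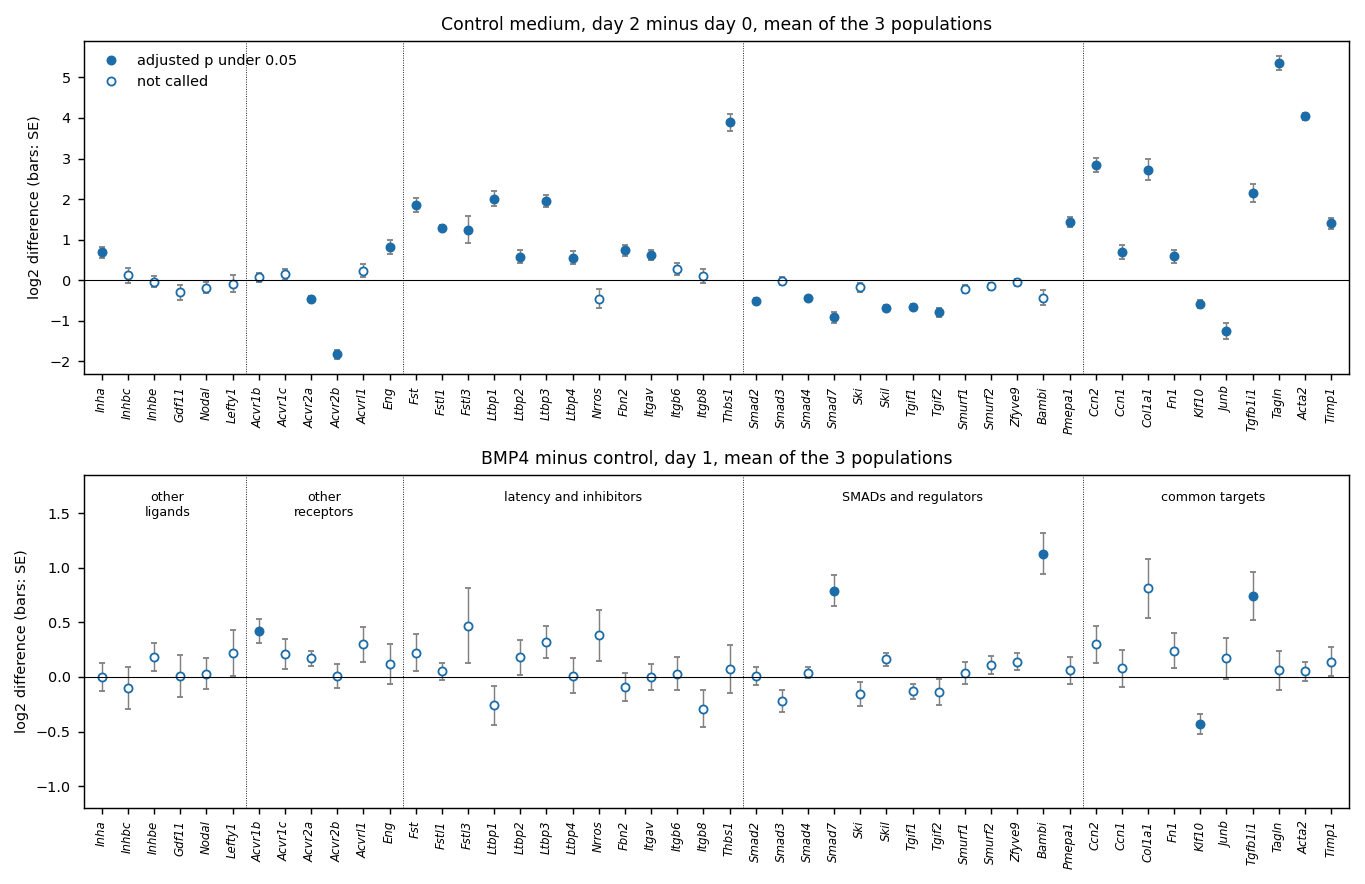
Log2 differences (points, SE as bars) of the 48 other pathway genes, grouped by list, from day 0 to day 2 in control medium (top) and for BMP4 minus control at day 1 (bottom), each averaged over the 3 populations; filled points have a limma adjusted p under 0.05. Most latency and target genes are filled and above 0 in culture, led by Tagln at 5.35, whereas 5 genes are filled for BMP4.

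BMP4 changed 3 of the 9 genes at day 1 as a mean of the 3 populations, beside 6.3% of all genes tested. Tgfb1 and Tgfbi rose and Tgfbr3 fell. Within single populations, 2 of 9 were called in the early population (Tgfb1 and Tgfbi higher, beside 2.45% of all genes), 1 of 9 in the intermediate population (Tgfbr3 lower, beside 0.238%) and 0 of 9 in the late population (0.0793%). In the late population 3 of 9 had an unadjusted p under 0.05 in limma, as did 1144 of all 15136 genes.

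Tgfb1 rose most in the early population. There its level at day 1 was 6.18 and 6.76 on the 2 control arrays and 7.92 and 8.52 on the 2 BMP4 arrays. It was 6.62 and 6.33 against 6.88 and 7.48 in the intermediate population, and 6.32 and 6.66 against 7.01 and 7.42 in the late population. In each population both BMP4 arrays were above both controls, and over all 6 against 6 arrays the highest control, 6.76, was below the lowest BMP4 array, 6.88.

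The difference of Tgfb1 was 1.75 ± 0.34 (SE), or 3.37-fold, in the early population (limma adjusted p = 0.00593), 0.70 ± 0.34 in intermediate and 0.72 ± 0.34 in late cells, of which the last 2 were not called. Its mean over populations was 1.06 ± 0.20, or 2.08-fold (limma adjusted p = 0.00233). The early call was lost without the early day 1 control array replicate 1 or without the early day 1 BMP4 array replicate 2, with a difference of 1.46 in both cases, whereas the mean over populations kept its call when any 1 array was left out. The second probe set of Tgfb1 differed by 0.71 ± 0.26 in the early population and by 0.28 ± 0.15 in the mean, neither of them called.

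At day 2 the level of Tgfb1 in the early population was 6.89 and 7.08 in control medium and 7.85 and 8.18 with BMP4, and the groups did not overlap. The difference was 1.03 ± 0.34 (SE) with a limma adjusted p of 0.0832, but it was called with both probe sets averaged (0.80, adjusted p = 0.0189) and without the 3 day 0 arrays numbered replicate 2 (1.03, adjusted p = 0.0427). The mean over the 3 populations was 0.56 ± 0.20 (adjusted p = 0.164), or 0.49 with both probe sets averaged (adjusted p = 0.0211). The intermediate population had 7.14 and 7.49 in control medium and 7.44 and 7.27 with BMP4, which overlap. Ordered by group mean, Tgfb1 was highest in early BMP4 cultures at day 1 (8.22 ± 0.42, SD, n = 2) and day 2 (8.02 ± 0.23), which did not differ beyond that spread, then in late (7.54 ± 0.56) and intermediate (7.36 ± 0.12) BMP4 cultures at day 2, which did not either. The lowest was the library pair labelled early day 0 (6.25 ± 0.25).

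The response of Tgfb1 was 1.02 ± 0.34 (SE) larger in the early than in the intermediate population as a mean of days 1 and 2, and 0.72 ± 0.34 larger than in the late population. Neither difference was called (limma adjusted p = 0.273 and 0.41). The intermediate minus late difference was -0.29 ± 0.34. For no gene of the 9 was the BMP4 response called different between populations, beside 0.78% of all genes for early against late, 0.429% for early against intermediate and 0% for intermediate against late. By unadjusted p under 0.05 in limma, 1, 2 and 1 of the 9 genes passed in these comparisons, and 598 of all genes in the last.

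Macrophages are a known source of TGF-beta1, and markers of that cell type moved with BMP4 too. The summed signal of 8 macrophage markers was 544 and 616 in early controls and 1017 and 1120 in early BMP4 cultures at day 1, and 745 and 698 against 1150 and 1359 in the intermediate population. In the late population it was 476 and 481 against 519 and 452, overlapping. Tgfb1 in the same cultures differed by 0.72 ± 0.34 (SE), which was not called. At day 2 the sum was 482 and 563 against 1304 and 1318 in the early population, and 502 and 595 against 998 and 1131 in the intermediate population, where Tgfb1 differed by 0.04 ± 0.34. In the late population at day 2 it was 491 and 409 against 393 and 480. Of the 8 markers 4 rose and 0 fell with BMP4 at day 1 in the mean of populations (limma), and 4 to 8 of them lay above the 40th percentile on any array. The complement genes C1qb and C1qa came nearest the floor of 4, with levels of 4.17 to 7.61 and 4.19 to 5.75. The part of these cells in the Tgfb1 result was not tested beyond these values.

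**Figure D4:**
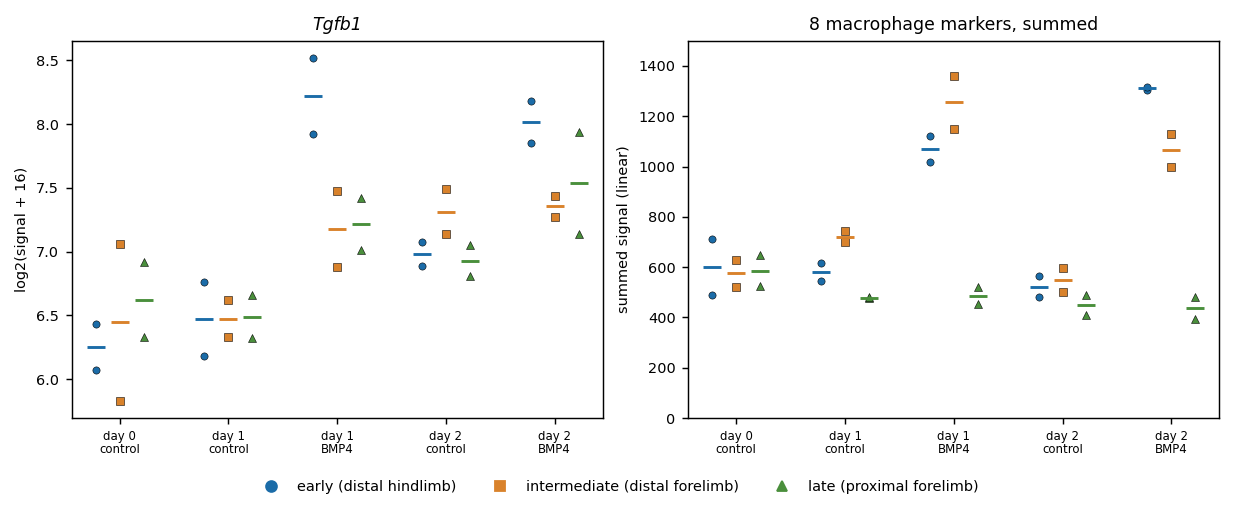
Level of Tgfb1 as log2(signal + 16) (left) and summed linear signal of 8 macrophage markers (right) on every array in the 5 conditions; points are arrays, dashes are group means of 2 arrays, and colours and shapes mark the population. At day 1 both are higher with BMP4 in the early and intermediate populations. In the late population at day 1 Tgfb1 is 6.32 and 6.66 in control medium and 7.01 and 7.42 with BMP4. The marker sum there is 476 and 481 against 519 and 452. Of the single populations at day 1, only the early one had a called difference of Tgfb1.

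Tgfbi rose with BMP4 at day 1 by 0.73 ± 0.14 (SE) in the mean of populations, or 1.66-fold (limma adjusted p = 0.00243). The levels in control and BMP4 cultures were 10.83 and 10.87 against 11.51 and 12.15 in the early population, 11.33 and 11.35 against 11.78 and 12.13 in the intermediate, and 11.15 and 11.10 against 11.61 and 11.84 in the late population. All 6 BMP4 arrays were above all 6 controls. The difference was 0.98 ± 0.24 in the early population (limma adjusted p = 0.0319), 0.62 ± 0.24 in intermediate and 0.60 ± 0.24 in late cells. The early call was lost on leaving out the early day 1 control array replicate 1 (0.96), the control array replicate 2 (1.00) or the BMP4 array replicate 2 (0.66). The other 3 probe sets of Tgfbi rose in the mean of populations by 1.10, 0.92 and 0.89.

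At day 2 the mean difference of Tgfbi was 0.38 ± 0.14 (SE) and was not called on the brightest probe set (limma adjusted p = 0.178). The other 3 probe sets differed by 0.87, 0.41 and 0.57, with limma adjusted p-values of 0.0111, 0.0386 and 0.0497. With all 4 probe sets averaged the difference was 0.56 (adjusted p = 0.0228). The levels at day 2 were 11.25 to 11.76 in the 6 controls and 11.45 to 12.09 in the 6 BMP4 cultures, and they overlapped.

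Tgfbr3, the betaglycan coreceptor, had the smallest adjusted p of the 9 genes for BMP4. At day 1 its levels in control and BMP4 cultures were 7.12 and 7.14 against 6.69 and 6.42 in the early population, 7.20 and 7.72 against 5.82 and 6.21 in the intermediate, and 7.49 and 7.28 against 6.59 and 6.77 in the late population. All 6 BMP4 arrays were below all 6 controls. The mean difference was -0.91 ± 0.11 (SE), or 1.87-fold lower (limma adjusted p = 5.13e-05), and it kept its call when any 1 array was left out.

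In the intermediate population Tgfbr3 fell by 1.44 ± 0.20 (SE), or 2.71-fold (limma adjusted p = 0.0021), though not beyond the threshold without the intermediate day 1 control array replicate 2 (-1.18, adjusted p = 0.0549). The differences in the early (-0.58 ± 0.20) and late (-0.70 ± 0.20) populations were not called. The second probe set of Tgfbr3 differed by -0.12 ± 0.12 in the mean (limma adjusted p = 0.704), so the fall rests on 1 of 2 probe sets. With both averaged the mean difference of Tgfbr3 at day 1 was -0.51 and was called.

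BMP4 at day 2 left 1 of the 9 genes called in the mean of populations, Tgfbr3, beside 1.9% of all genes. It was 6.88 to 7.64 on the 6 BMP4 arrays (median 7.06) and 7.35 to 7.98 on the 6 controls (median 7.62), with overlap. Its difference was -0.50 ± 0.11 (SE; limma adjusted p = 0.0224), and leaving out any of 7 single arrays ended the call, with differences of -0.44 to -0.52, as did averaging both probe sets (-0.34). In the early population 2 of 9 were called, both lower, beside 5.68% of all genes. In the intermediate and late populations 0 of 9 were called, beside 0.00661% and 0.0132% of all genes, with 2 and 0 of the 9 at an unadjusted p under 0.05 in limma.

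The 2 genes called in the early population at day 2 were receptors. Tgfbr2 was 9.83 and 9.79 in control medium and 9.17 and 9.21 with BMP4, a difference of -0.62 ± 0.17 (SE; limma adjusted p = 0.0351). Tgfbr3 was 7.83 and 7.59 against 7.14 and 6.94, a difference of -0.67 ± 0.20 (adjusted p = 0.0498). Neither pair of groups overlapped, but both calls were lost on leaving out any 1 of the 4 arrays, with differences of -0.60 to -0.64 for Tgfbr2 and of -0.55 to -0.78 for Tgfbr3. With all probe sets of a gene averaged, both calls were lost (-0.43 for Tgfbr2 and -0.40 for Tgfbr3), and Tgfb1 (0.80) and Tgfbi (0.86, limma adjusted p = 0.029) were called higher in their place. Tgfbr2 at day 1 in the same population was 8.81 and 8.86 against 8.28 and 8.34, apart but not called (-0.52 ± 0.17, limma adjusted p = 0.124).

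Cartilage markers differed between the replicates of the early BMP4 cultures, which these receptor and ligand values share. The summed signal of 8 cartilage markers was 8014 and 3336 at day 1 and 10333 and 3854 at day 2 with BMP4, against 9657 and 7856, and 16581 and 16735, in control medium. Replicate 2, which had less cartilage signal, had the higher Tgfb1 in these cultures at both days (8.52 against 7.92 and 8.18 against 7.85), and replicate 2 was also the higher in the early controls (6.76 against 6.18 and 7.08 against 6.89). The replicate with less cartilage signal also had the higher Tgfb1 in intermediate BMP4 cultures at day 1 (8365 against 12773, Tgfb1 7.48 against 6.88). The same held in late BMP4 cultures at day 1 (12048 against 12635, Tgfb1 7.42 against 7.01) and day 2 (13128 against 15801, Tgfb1 7.94 against 7.14). In intermediate BMP4 cultures at day 2 the replicate with less cartilage signal (15071 against 19549) had the lower Tgfb1, 7.27 against 7.44. In control medium the replicate with less cartilage signal had the lower Tgfb1 in early cells at day 2 and intermediate cells at day 1. This was also so in late controls at both days. The opposite was seen in early controls at day 1 and intermediate controls at day 2. In every BMP4 group replicate 2 had less cartilage signal, so cartilage signal and replicate number cannot be told apart there. The part of the cartilage difference in the results was not tested.

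The other ligand genes were not called for BMP4 in the fit without the replicate number. Tgfb2 at day 1 was 9.95 to 10.22 on the 6 controls and 10.29 to 11.08 on the 6 BMP4 arrays, which did not overlap, and the difference was 0.52 ± 0.17 (SE; limma adjusted p = 0.0813). The other 3 probe sets of Tgfb2 rose at day 1, by 0.75, 0.81 and 0.69 (limma adjusted p = 0.00668, 0.0356 and 0.0174), and the mean of all 4 was called at 0.69 (adjusted p = 0.0126). At day 2 the difference of Tgfb2 was 0.15 ± 0.17. Whether Tgfb2 is called therefore depends on the probe set.

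Inhba was 6.10 to 7.14 in day 1 controls and 6.92 to 7.94 with BMP4, overlapping, with a difference of 0.70 ± 0.24 (SE; limma adjusted p = 0.0835). Tgfb3 had 8.06 to 9.33 against 7.42 to 8.76, overlapping, and a difference of -0.46 ± 0.15 (limma adjusted p = 0.0663). These ranges pool the populations and replicates. With the replicate number added to the fit, both Inhba and Tgfb3 were called (limma adjusted p = 0.0198 and 0.0218). Tgfbr2 had -0.31 ± 0.10 at both days (limma adjusted p = 0.0713 and 0.118). For Inhbb (-0.11 ± 0.30 at day 1) and Tgfbr1 (0.01 ± 0.07) the differences were within 1 SE of 0.

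**Figure D5:**
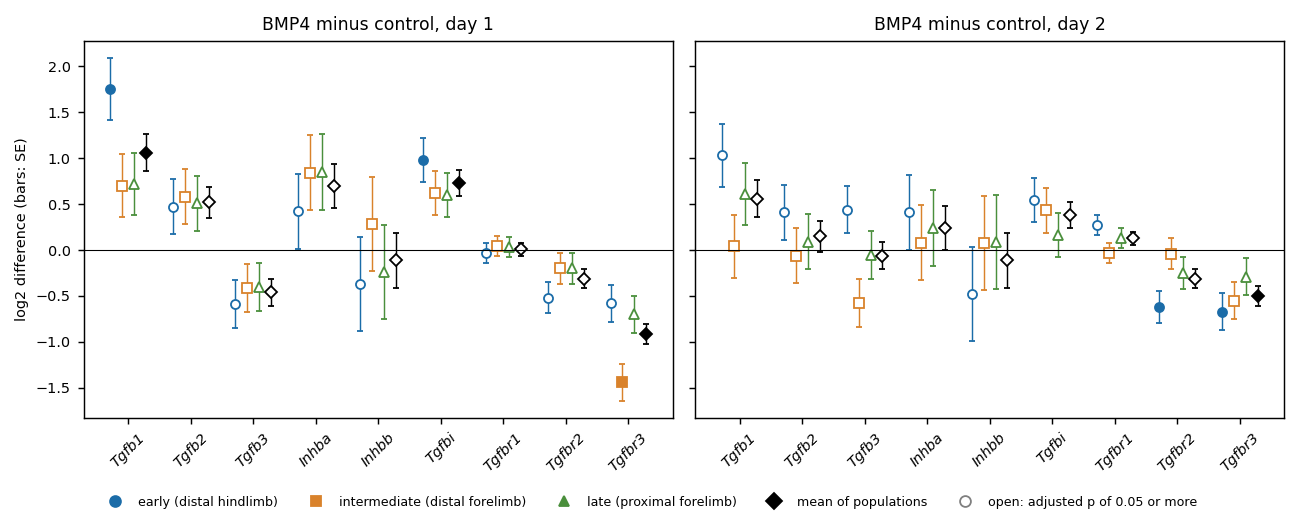
BMP4 minus control for the 9 genes at day 1 (left) and day 2 (right), as log2 differences (points) with SE as bars, for each population of 2 against 2 arrays and for their mean (black diamonds); filled points have a limma adjusted p under 0.05. At day 1 Tgfb1 (1.75 in the early population) and Tgfbi lie above 0 and Tgfbr3 (-1.44 in the intermediate population) below 0, and at day 2 the differences are mostly nearer 0.

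The change of the BMP4 response between days 1 and 2 was not called for any of the 9 genes, beside 0.0132% of all genes. By an unadjusted p under 0.05 in limma 1 of 9 passed, Tgfbr3, with a day 2 minus day 1 difference of 0.41 ± 0.16 (SE). The corresponding values were -0.50 ± 0.28 for Tgfb1 and -0.35 ± 0.20 for Tgfbi.

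Among the other pathway genes, BMP4 at day 1 raised 2 of 13 SMADs and intracellular regulators in the mean of populations, where 6.3% of all genes were called. They were Bambi (1.13 ± 0.19, SE), a decoy receptor, and Smad7 (0.79 ± 0.14), an inhibitory SMAD. Both are also known as BMP response genes. Acvr1b (0.42 ± 0.11), the activin type I receptor, rose among 6 other receptors. Of 10 target genes Tgfb1i1 (0.74 ± 0.22) rose and Klf10 (-0.43 ± 0.09) fell, and none of 13 latency genes or 6 other ligands was called. The medians of the 5 lists were 0.02 to 0.19, beside 0.01 over all genes. At day 2 none of the 48 genes was called in the mean of populations, and in the early population 3 of 48 rose, near the 5.68% called over all genes: Lefty1 (1.44 ± 0.37), a secreted Nodal inhibitor, Acvr2a (0.46 ± 0.13) and Skil (0.45 ± 0.10).

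The 3 populations differed little in control medium at days 1 and 2. Of the 9 genes 1 was called between early and intermediate cells (beside 0.852% of all genes), 0 between early and late cells (1.48%) and 0 between intermediate and late cells (2.64%), with 1 of 9 at an unadjusted p under 0.05 in limma in each of the last 2. The gene called was Tgfb3. At day 1 it was 8.06 and 8.51 in early and 8.51 and 9.33 in intermediate cells, and at day 2 8.21 and 8.37 against 9.32 and 9.56. The groups stood clearly apart at day 2 and touched at day 1.

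The difference of Tgfb3 was -0.89 ± 0.18 (SE), or 1.86-fold lower in early cells (limma adjusted p = 0.0156). The call was lost on leaving out any of 5 single arrays, with differences of -0.69 to -0.95. Intermediate minus late cells differed by 0.57 ± 0.18 (adjusted p = 0.113). Skeletal muscle markers also differed between populations, and all 7 were lower in early and in intermediate than in late cells. Between early and intermediate cells, where Tgfb3 was called, 0 of the 7 were called. Their part was not tested. Among the other pathway genes Inha was lower in early (-0.73 ± 0.16) and intermediate (-0.66 ± 0.16) than in late cells, and Eng was lower in early than in intermediate cells (-1.15 ± 0.22).

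Pearson correlations over the 15 group means describe which genes moved together. The groups share arrays with the comparisons above and include day 0, against which 39.5% of all genes were called at day 1. Tgfb2 and Tgfbi correlated at 0.99, Inhba with them at 0.93 and 0.94, and Tgfb3 with Tgfbr2 at 0.90. Tgfbr1 ran opposite, at -0.83 with Tgfb2 and -0.85 with Tgfb3. Tgfb1 had its highest correlation among the 9 genes with Inhba, at 0.70, and Tgfbr3 was near 0 with Tgfbr2, at -0.02.

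The tested genes most like each member over the 15 group means were Rgs5 (0.963), Brinp1 and Col14a1 for Tgfb1, Capn2 (0.991), Alcam and Zfp74 for Tgfb2, and Atp11b (0.975), Asah1 and Tram2 for Tgfb3. They were Tmem106b (0.983), Fndc3b and Lrpap1 for Inhba, Nfix (0.99), Col8a2 and Rtl3 for Tgfbr2, and Alcam (0.996), Pcdhb17 and Stx7 for Tgfbi. For Tgfbr3 they were Polg2 (0.926), Ldha and Meox2. Inhbb reached 0.816 with Frg2f1, then Foxred1 and Mcpt2. Tgfbr1 spanned less than 1 between its lowest and highest group mean and was not compared in this way. The genes named are the highest of all tested genes, and some of them also spanned less than 1. Among those were Atp11b (0.69), Polg2 (0.64), Frg2f1 (0.68) and Foxred1 (0.6).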

How the data were processed

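Intensity was deposited by the authors as 1 linear value for each of 45101 probe sets on 30 arrays, made with MAS5 per the submitters' processing notes; settings: not given in the sources used here. Values were used as log2(signal + 16) with the deposited scaling. Probe sets above the 40th percentile of an array on at least 2 arrays were kept, and the brightest was taken for each gene, which gave 15136 genes. A mean was fitted for each of 15 groups with limma 3.58.1 in R 4.3.3 (eBayes with a trend, no block, 15 residual degrees of freedom), with Benjamini-Hochberg adjustment within each of 18 comparisons, two-sided. The code was tested on simulated data. With 2 arrays a group, the number of arrays limits the precision. The members and lists were chosen with earlier results of these data known. All 9 members were named in every comparison, with up to 4 genes a list by smallest adjusted p and the 3 genes most correlated with a member whose group means span at least 1. Probe sets annotated to several genes were left out of the fit over genes. Alternatives changed the pseudocount, filter, scaling, probe set, moderation, block or arrays.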

Additional observations from a re-analysis of the deposited data

Results flagged for a closer look

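The response of Tgfb3, the TGF-beta3 gene, to BMP4 pointed in opposite directions in 2 pairs of groups, with every array of one group on the other side. In the early population at day 2 its levels were 8.21 and 8.37 in control medium and 8.58 and 8.89 with BMP4, whereas in the intermediate population at day 2 they were 9.32 and 9.56 against 8.85 and 8.88. The difference between these responses was 1.02 ± 0.36 (SE), with an unadjusted p of 0.0103 and an adjusted p of 0.329 in limma. In the early population at day 1 the levels were 8.06 and 8.51 against 7.42 and 7.98, and the response at day 2 exceeded that at day 1 by 1.03 ± 0.36 (unadjusted p = 0.00979, limma adjusted p = 0.553). Neither difference passed the threshold. Both pairs were picked by these same levels in a search over the 9 genes, so the p-values do not serve as a test of them.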

How the results depend on the processing

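Of 26 calls of the 9 genes over 18 comparisons, all 26 were kept with quantile normalization, a pseudocount of 64 or the replicate block, 25 with a pseudocount of 1, without the filter or with median centring, 23 without the trend or without the 3 day 0 arrays numbered replicate 2, 21 with probe sets averaged and 20 with only the compared groups in the fit. No call reversed in these alternatives. Counts of called genes among the 9 that moved by over 1.5 times follow; the cause was not tested. For BMP4 at day 2 in early cells, 2 became 1 with a pseudocount of 1 or no filter and 0 without the trend or with only the compared groups. In the early population at day 1, 2 became 1 with median centring or without the trend and 0 with only the compared groups, where the intermediate count at day 1 went from 1 to 0 too. The mean over populations at day 1 went from 3 to 5 with the replicate block or without the 3 day 0 arrays, and at day 2 from 1 to 2 with averaged probe sets or without those arrays and to 3 with only the compared groups. From day 1 to day 2 in control medium 2 became 4 with only the compared groups, and early against intermediate went from 1 to 0. Intermediate against late went from 0 to 1 with the block, where Tgfb3 differed by 0.57. Smaller moves were from 7 to 6 for day 0 to day 1 and for day 0 to day 2, both without the 3 day 0 arrays and with averaged probe sets, and from 2 to 3 for day 1 to day 2 (without those arrays or with the block) and for early cells with BMP4 at day 1 (without those arrays). With averaged probe sets the early count at day 2 stayed at 2 but for different genes, Tgfb1 and Tgfbi in place of Tgfbr2 and Tgfbr3. The mean over populations at day 1 also gained Tgfb2 with a pseudocount of 64 (0.5, limma adjusted p = 0.0401). With averaged probe sets it gained Tgfb2 as well (0.69, limma adjusted p = 0.0126).

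Leaving out 1 array at a time, with a lone array assumed to vary like the other groups, gave counts of 0 to 2 for the early population at day 1, 0 to 0 at day 2, 0 to 1 for the intermediate population at day 1, 3 to 5 and 0 to 1 for the means at days 1 and 2, 1 to 4 from day 1 to day 2, 6 to 7 from day 0 to day 2, and 0 to 1 for early against intermediate and for intermediate against late. Over all genes, the 371 calls of the early population at day 1 ranged over 83 to 572 in all alternatives, the 860 at day 2 over 68 to 1379, the 953 of the mean at day 1 over 498 to 1344 and the 288 at day 2 over 108 to 609. Deviations of same-numbered replicates correlated at -0.125 to 0.349 (median 0.121), and at over 0.1 in 60 of 105 pairs of groups. As 0.1 was not passed in every pair, the fit without a block was kept, which does not show the replicates to be unpaired. Red blood cell markers were higher in replicate 1 in all 15 groups. Besides the call named above, the block added Tgfb3 and Inhba to the mean at day 1 (-0.46, adjusted p = 0.0218, and 0.70, adjusted p = 0.0198, in limma) and Tgfb3 to the step from day 1 to day 2 (0.41), and changed no other call. With 2 arrays a group, signal over background limits Inhba at day 0 and Inhbb throughout.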
